A study of Mus musculus with 36 samples.

Results

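The 4T1 tumors of 1 and 3 weeks post-inoculation (w p.i.) were compared across all genes. They were found by the sample titles and make up 6 of the 36 RNA-seq libraries of the series, 3 at each of the 2 time points. The series follows intraductal tumors of 4T1 cells in BALB/c mice and of Py230 cells in C57BL/6 mice, beside glands of both strains that received Matrigel alone, at week 1, week 3 and week 6. The 4T1 tumors grew from luciferase-expressing 4T1 mammary tumor cells that were placed in PBS with Matrigel through the teat canal into the third mammary gland of lactating BALB/c females shortly after their pups were weaned, so tumor-bearing glands and Matrigel glands alike were leaving lactation. 3 BALB/c Matrigel glands at 1 w p.i. and 3 at 3 w p.i., which carried the strain, lactation, weaning and Matrigel but no tumor cells, served as the check for changes of the gland itself. RNA was isolated from frozen tumors, how much surrounding gland each sample held is not given in the sources used here, and neither the labels nor the study's methods say which libraries share a mouse, a litter or a batch, so the p-values measure the spread between these libraries.

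4T1 is a BALB/c mammary carcinoma line used as a model of metastatic triple-negative breast cancer, and cells inoculated into the duct first grow inside it, as in ductal carcinoma in situ, before they break through the myoepithelial layer into the surrounding stroma. A gland whose pups are removed goes through involution: secretory alveolar cells stop making milk and die, neutrophils and macrophages clear the debris, and adipocytes refill the fat pad. A tumor library from such a gland therefore holds RNA of tumor cells, of remaining ducts and alveoli, and of fat, muscle, vessels, blood and immune cells. In such bulk RNA, fewer cells of a type and less RNA per cell cannot be told apart.

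The deposited expression values are scores. They centred on 0 in every library, with an SD of 1 across 21650 genes, so a score says how far a gene lay above or below the mean of all genes in its own library. Over the 2714 least variable of the well expressed genes (mean normalized count 100 or more), 1 score unit corresponded to 2.99 log2 units, and fold values given below as approximate rest on this figure. The depth of the libraries is unknown, since scores hold no counts.

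The libraries were first set against their labels, and week 3 tumor 1 did not resemble week 3 tumors 2 and 3. Mean correlation with the 3 Matrigel glands of 3 w p.i. was 0.983 for week 3 tumor 2 and 0.987 for week 3 tumor 3, close to that of these glands among themselves (0.982 to 0.988). For week 3 tumor 1 it was 0.943, and this library was closest to the week 1 tumors (0.979). Among the week 1 tumors, tumor 2 was the nearest to the glands of 3 w p.i. (0.976, against 0.952 for tumor 1 and 0.956 for tumor 3).

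The same order was seen in genes of established tumors. The 50 genes that stood highest in 4T1 tumors over BALB/c Matrigel glands at 6 w p.i., chosen only from libraries of 6 w p.i. after the values had been seen, had mean scores of -0.15, -0.33 and -0.26 in the week 1 tumors. In the week 3 tumors they were 0.24, -0.43 and -0.46, and in the week 6 tumors 1.06 to 1.12. Of these 50 genes, 44 lay above all 6 glands of weeks 1 and 3 in week 3 tumor 1, but only 13 in week 3 tumor 2 and 12 in week 3 tumor 3, while the week 1 tumors had 29, 21 and 24. Over all genes, 31.2%, 11.6% and 12.8% lay above the 6 glands in week 3 tumors 1, 2 and 3. In week 1 tumors 1, 2 and 3 it was 31.3%, 17.2% and 29.7% of all genes. Hmga2, a chromatin protein of embryonic and tumor cells that normal adult tissue hardly makes, scored -1.31, -1.36 and -1.32 at 1 w p.i. and -0.17, -1.82 and -1.73 at 3 w p.i. The gland libraries of these weeks lay between -1.92 and -1.76, so Hmga2 marked all week 1 tumors and week 3 tumor 1, and was at or near the gland level in week 3 tumors 2 and 3. Adipocyte genes ran the other way: the mean score of 20 of them was 0.97, 1.41 and 0.95 at 1 w p.i. and 0.48, 1.74 and 1.86 at 3 w p.i. Skeletal muscle genes, 18 of them, ranged from -0.55 to 1.51 among the week 1 tumors alone. In Hmga2 and the adipocyte genes, week 3 tumors 2 and 3 were closer to the Matrigel glands of weeks 1 and 3 than to the other 4T1 tumors. Whether the 2 libraries labelled week 3 tumors 2 and 3 hold mostly gland tissue, or carry exchanged labels, was not tested, and every week 3 value below takes them by their labels. Results below are given with all libraries. For many lists and some genes they are also given without week 3 tumor 1 and without week 3 tumors 2 and 3. In the fit without week 3 tumors 2 and 3, 1 library stands for week 3 and is assumed to vary like the others.

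**Figure D1:**
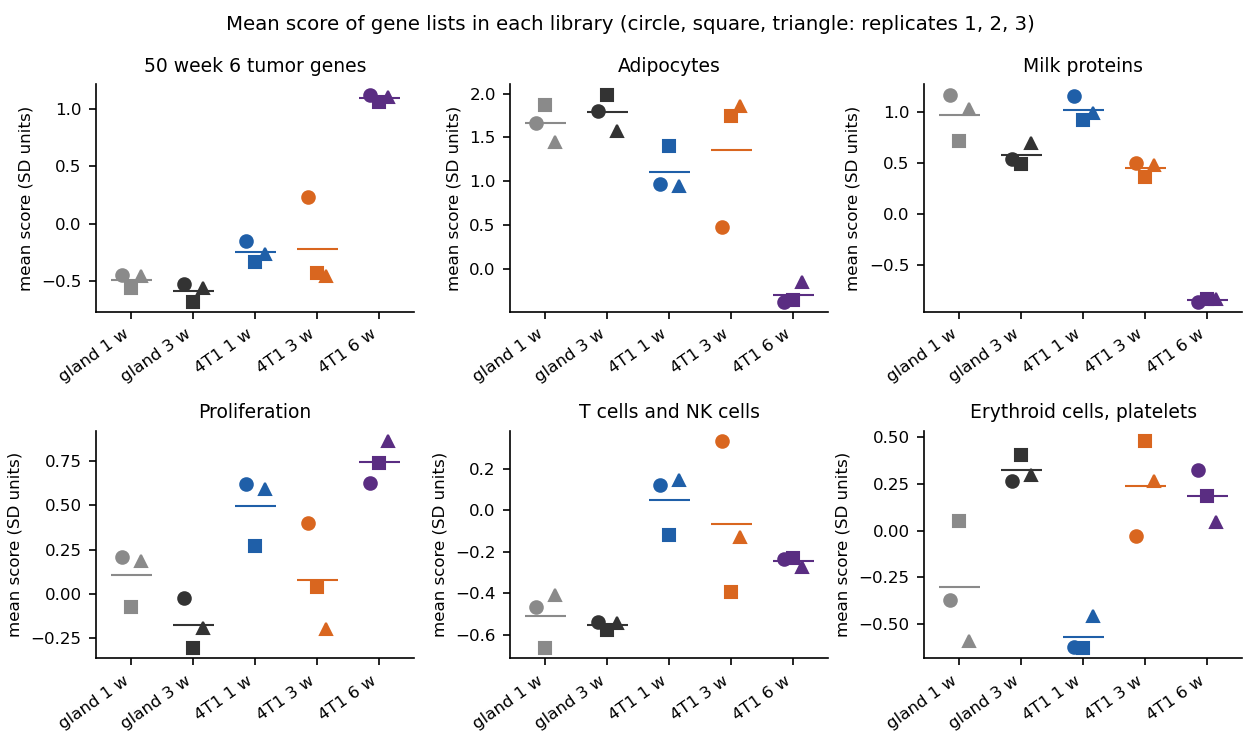
Mean score (vertical axis, SD units) of 6 gene lists in each library of BALB/c Matrigel glands and 4T1 tumors; circles, squares and triangles are replicates 1, 2 and 3 and lines are group means. Week 3 tumor 1 lay highest of the 3 week 3 tumors in week 6 tumor genes (0.24), proliferation and T cell genes and lowest in adipocyte genes (0.48), while milk protein genes were lower in all 3 than in all 3 week 1 tumors.

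With all libraries, 136 of 21650 genes (0.628%) passed an adjusted p of 0.05 in limma between 3 and 1 w p.i., 55 higher (0.254%) and 81 lower (0.374%) at 3 w p.i. The lower genes included milk proteins, their luminal regulator Elf5 and acute-phase proteins of the involuting gland, and the higher ones included hemoglobins and an immunoglobulin. Without regard to a test, the groups did not overlap for 1244 genes on the higher side (5.75%) and 1796 on the lower side (8.3%). These 136 calls rest on a spread estimated over all 36 libraries: fitted on the 6 tumor libraries alone, or on the 12 BALB/c libraries of both weeks, 0 genes were called by limma, with 1641 and 2364 at an unadjusted p under 0.05, against 3570 with all libraries. The count moved most with week 3 tumor 1, without which it was 3378 genes, 1529 higher (7.06%) and 1849 lower (8.54%), the 136 among them. It was 12 and 16 without week 1 tumors 1 and 3, 500 without week 1 tumor 2, and 21 and 35 without week 3 tumors 2 and 3 one at a time. Of 31 called genes followed one by one, 29, 2 and 23 lost their call without week 1 tumors 1, 2 and 3, and 0, 26 and 24 without week 3 tumors 1, 2 and 3. Wap and Cdhr1 kept theirs in all 6 of these fits.

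With week 3 tumors 2 and 3 both left out, an alternative chosen after the data were seen, 150 genes were called, 111 higher (0.513%) and 39 lower (0.18%). 21 of the 136 were among them, 15 lower and 6 higher. The lower ones include the milk proteins Wap and Lalba, the transcription factor Elf5, Foxi1, a forkhead factor known from ion-transporting epithelia, Folr1, a folate receptor of epithelia, and Atp2c2, a calcium pump of the secretory pathway that serves milk calcium. The higher ones include Ighg1, Tdo2, an enzyme that breaks down tryptophan, and 2 predicted genes of the interferon-inducible GTPase family, Gm4841 and F830016B08Rik. Gm4841 scored -0.35, -0.46 and -0.63 at 1 w p.i. and 0.65, 0.71 and -0.33 at 3 w p.i., so week 3 tumors 1 and 2 lay far above the week 1 tumors and tumor 3 just above them. These genes were picked by their calls, after the values had been seen.

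Milk protein genes gave more calls on the lower side than any other list. Prolactin drives them in secretory alveolar cells through the transcription factor STAT5, which recognizes the letters TTCNNNGAA. Of the 15 milk genes measured, 10 had a promoter sequence in the RefSeq table used (GRCm38.p6), and 3 of these held TTCNNNGAA in the 250 bases before the gene start, compared with 7.02% of 32851 promoters over the same length. The motif reads the same on both strands. The stretches of Csn2, Csn1s1, Wap and Lalba are printed 5' to 3' to show where the motif lies, in capitals, in the promoters of 2 caseins, and that its letters are not in this window of Wap and Lalba, which says nothing about binding of the factor. The stretches end at RefSeq gene starts, while the gene spans given below are those of GENCODE. For Csn2 the GENCODE span starts further upstream, so most of the printed stretch lies inside it.
Csn2 (chr5:87699426-87699675, minus strand): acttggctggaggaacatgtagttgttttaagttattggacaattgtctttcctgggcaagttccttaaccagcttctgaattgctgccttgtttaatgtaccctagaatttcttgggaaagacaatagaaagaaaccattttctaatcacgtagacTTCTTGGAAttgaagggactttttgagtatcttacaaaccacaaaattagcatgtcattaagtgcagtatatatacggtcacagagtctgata
Csn1s1 (chr5:87665958-87666207, plus strand): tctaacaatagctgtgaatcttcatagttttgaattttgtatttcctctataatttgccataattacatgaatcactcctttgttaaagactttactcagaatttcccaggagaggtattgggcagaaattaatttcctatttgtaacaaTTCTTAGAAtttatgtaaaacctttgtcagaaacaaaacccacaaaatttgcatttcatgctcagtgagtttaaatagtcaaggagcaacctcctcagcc
Wap (chr11:6638650-6638899, minus strand): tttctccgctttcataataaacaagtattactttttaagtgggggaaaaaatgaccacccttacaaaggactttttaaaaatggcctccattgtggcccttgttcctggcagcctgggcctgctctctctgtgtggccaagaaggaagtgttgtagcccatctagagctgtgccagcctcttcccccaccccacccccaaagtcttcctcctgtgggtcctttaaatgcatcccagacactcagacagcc
Lalba (chr15:98482684-98482933, minus strand): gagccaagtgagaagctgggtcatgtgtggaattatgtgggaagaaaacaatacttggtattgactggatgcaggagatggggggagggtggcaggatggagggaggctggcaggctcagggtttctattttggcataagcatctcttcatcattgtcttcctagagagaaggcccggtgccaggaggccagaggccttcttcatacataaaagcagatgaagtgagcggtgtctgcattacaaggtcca

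Wap encodes whey acidic protein, the main whey protein of mouse milk (chromosome 11, 6635482-6638637). Its score was 0.91, 0.31 and 0.66 in the week 1 tumors and -0.60, -1.004 and -0.74 in the week 3 tumors. Every week 3 tumor lay below every week 1 tumor, with a difference of -1.40 ± 0.19 (SE), about 18.3-fold lower (limma adjusted p = 0.00058), the largest fall among named genes. The call held without each of the 6 tumors in turn and without week 3 tumors 2 and 3 together (-1.22).

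Csn2, beta-casein (chromosome 5, 87692624-87699630), scored 3.19, 2.74 and 3.03 at 1 w p.i. and 2.35, 1.71 and 1.76 at 3 w p.i., a difference of -1.04 ± 0.19 (adjusted p = 0.010, about 8.67-fold). Csn1s2a, another casein, scored 2.20, 1.93 and 1.88 and then 0.95, 1.01 and 1.19 (-0.95 ± 0.20, adjusted p = 0.028). Both groups were apart for both caseins, and week 3 tumor 1, the highest of the 3 in the week 6 tumor genes, was the highest week 3 tumor for Csn2 and the lowest for Csn1s2a. Without week 3 tumors 2 and 3 the differences were -0.633 for Csn2 and -1.055 for Csn1s2a. Both calls were kept without week 1 tumor 2 and without week 3 tumor 1, and lost in the other fits without 1 tumor. Lalba, alpha-lactalbumin, the regulatory subunit of lactose synthase (chromosome 15), went from 1.35, 1.47 and 1.41 to 0.61, 0.67 and 0.98 (-0.66 ± 0.12, adjusted p = 0.013), again without overlap. Csn1s1 (-0.66), Csn3, kappa-casein (-0.58), Cel, the bile salt-stimulated lipase of milk (-0.78), Olah, which ends fatty acid chains at medium length (-0.61), and Muc15, a milk fat globule mucin (-0.64), also fell.

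Thus 9 of 15 milk genes were called lower and 0 higher, beside 0.374% of all genes called lower. The groups were apart on the lower side for 11 of 15, and for 8.3% of all genes. The median difference of the milk genes was -0.605, against -0.002 over all genes. Btn1a1, butyrophilin of the milk fat globule, missed the threshold (-0.49, adjusted p = 0.081), and Xdh, its partner at the globule, had a difference of 0.05 (adjusted p = 0.69). The number called was 1, 8 and 2 without week 1 tumors 1, 2 and 3, and 10, 1 and 4 without week 3 tumors 1, 2 and 3. In these 6 fits, in the same order, 0.0323%, 1.6%, 0.0647%, 8.54%, 0.0693% and 0.102% of all genes were called lower. With week 3 tumors 2 and 3 both left out it was 3 (Wap, Lalba and Btn1a1), beside 0.18% of all genes, while the median stayed at -0.617.

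In the Matrigel glands milk genes were lower at 3 w p.i. too. Wap scored 0.63, -0.25 and 0.58 in glands of 1 w p.i. and -0.74, -0.74 and -0.77 in glands of 3 w p.i. (-1.07 ± 0.19, adjusted p = 0.043, and 0.094 with the replicate number as a block), and Csn2 scored 2.84, 2.25 and 2.71 and then 1.83, 1.67 and 2.00, without overlap (-0.77, adjusted p = 0.34). 7 of the 15 milk genes were apart in the glands on the lower side, where 3.76% of all genes were, and their gland median was -0.295. The tumor change minus the gland change was -0.34 ± 0.26 for Wap and -0.41 ± 0.17 for Lalba (both adjusted p = 0.997), so a difference between tumors and glands was not detected for either. By 6 w p.i. the mean score of the milk genes in 4T1 tumors was -0.86 to -0.83.

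**Figure D2:**
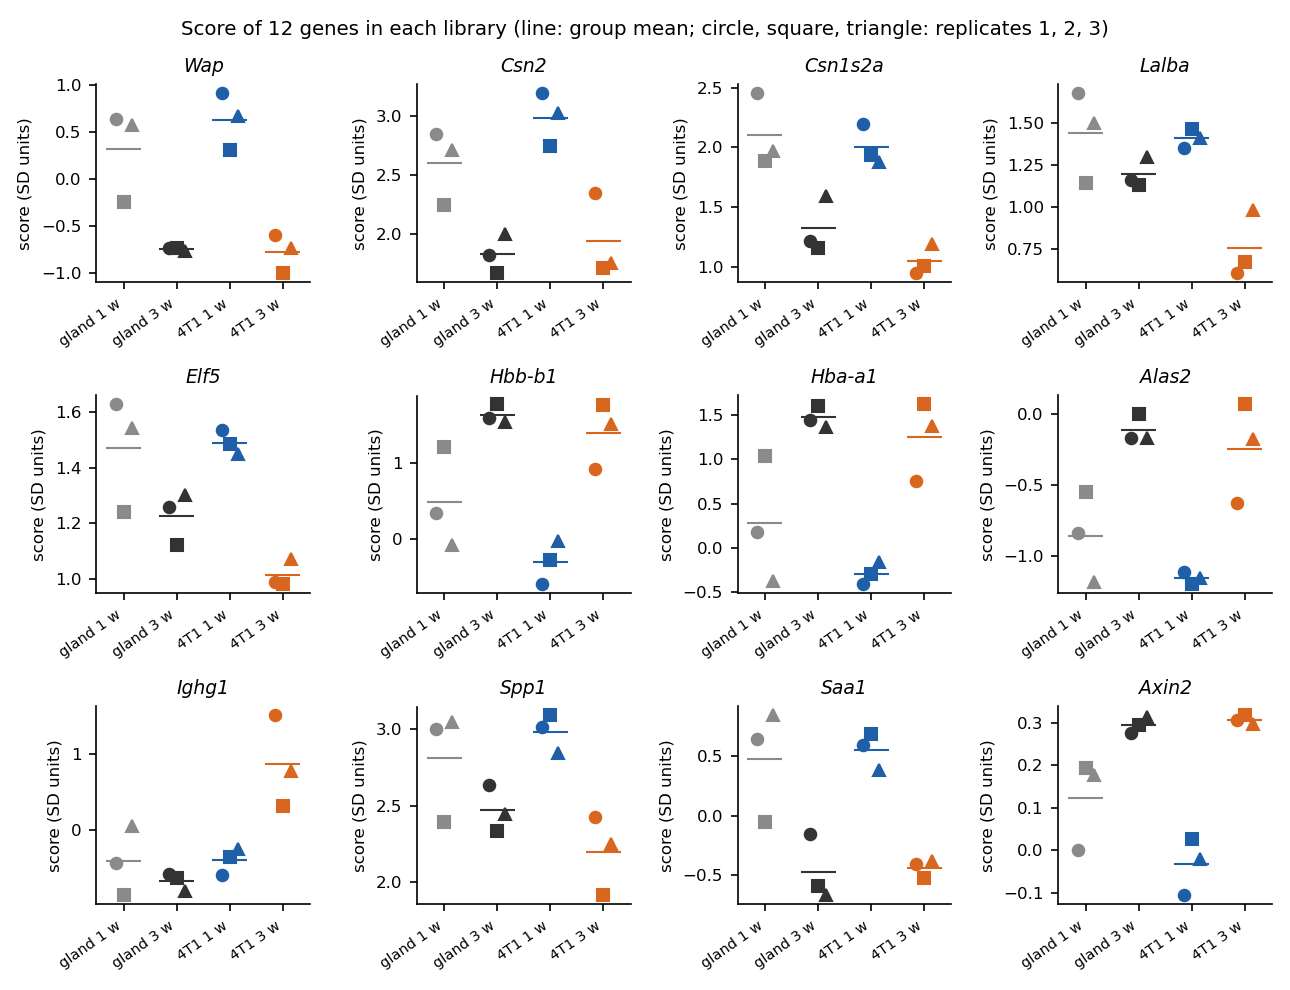
Score (vertical axis, SD units) of 12 genes in each BALB/c Matrigel gland and 4T1 tumor of 1 and 3 w p.i.; circles, squares and triangles are replicates 1, 2 and 3 and lines are group means. For Wap the week 3 tumors (-1.004 to -0.60) and week 3 glands (-0.77 to -0.74) sat together below the week 1 libraries, while Ighg1 was higher in the week 3 tumors (0.32 to 1.51) than in the week 3 glands (-0.81 to -0.59).

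Other secretory and luminal genes fell beside the milk proteins. Elf5, the ETS factor that specifies alveolar cells, scored 1.54, 1.48 and 1.45 at 1 w p.i. and 0.99, 0.98 and 1.07 at 3 w p.i. The spread within each time point was small and the difference was -0.47 ± 0.08 (adjusted p = 0.0062). Of the 6 fits without 1 tumor, the call was lost in the one without week 1 tumor 1 (adjusted p = 0.053). Muc1, the apical mucin of luminal cells, also fell (-0.49, adjusted p = 0.037), a call kept in 2 of these 6 fits, those without week 1 tumor 2 and without week 3 tumor 1. These were the 2 called of 25 luminal genes, beside 0.374% of all genes called lower. 17 of the 25 were apart on the lower side (8.3% of all genes were), among them the keratins Krt8 (-0.26) and Krt19 (-0.33), neither of which passed the test (adjusted p = 0.13 for both), and the median was -0.197. The median was -0.185 without week 3 tumor 1 and -0.187 without week 3 tumors 2 and 3. In the Matrigel glands the luminal median was -0.067, and 0 of the 25 genes were apart on the lower side, where 3.76% of all genes were. A difference between tumors and glands was not tested for the list as a whole. Wfdc18, a secreted whey-acidic-domain protein induced in involution, fell by 0.86. Ltf, lactoferrin, an iron-binding protein of milk and of neutrophil granules that stood in the neutrophil list, fell by 0.60. It was the only neutrophil gene called of 29, where 0.374% of all genes were called lower. Of the fits without 1 tumor, Wfdc18 was called in those without week 1 tumor 2 and week 3 tumor 1, and Ltf in these and in the one without week 3 tumor 3.

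Among 26 genes of mammary involution, 2 were called lower (0.374% of all genes were) and 0 higher. They were Saa1 and Saa2, serum amyloid A proteins, which are acute-phase reactants made by the involuting epithelium and whose reads can be split between near-identical copies. Saa1 scored 0.59, 0.69 and 0.39 at 1 w p.i. and -0.40, -0.52 and -0.38 at 3 w p.i. (-0.99 ± 0.18, adjusted p = 0.011). The week 3 tumors were alike here, and the glands differed by -0.95 (adjusted p = 0.068). Saa2 was called in tumors (-0.92) and in glands (-0.93, adjusted p = 0.043). Without week 1 tumor 1 and without week 3 tumor 2 neither was called. The median of the list was -0.127 in tumors and -0.035 in glands, and 9 of its 26 genes were apart on the lower side in tumors, where 8.3% of all genes were, including Mfge8, which tags dying cells for uptake (-0.39, adjusted p = 0.11), and Clu, clusterin, a marker of regressing epithelium (-0.33, adjusted p = 0.12).

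Myoepithelial and basal genes, whose layer bounds the duct, gave 0 calls of 18. Krt5, the keratin by which this layer is stained, scored 1.53, 1.63 and 1.47 at 1 w p.i. and 1.45, 1.12 and 1.07 at 3 w p.i. (-0.33 ± 0.24, adjusted p = 0.49). The groups were apart by little, with week 3 tumor 1 just under the lowest week 1 tumor. The contractile gene Cnn1, calponin, scored 0.56, 1.16 and 0.89 at 1 w p.i. and -0.20, 0.91 and 0.94 at 3 w p.i., lowest in week 3 tumor 1 (-0.32, adjusted p = 0.55).

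Spp1, osteopontin, a secreted phosphoprotein made by lactating epithelium, macrophages and many tumors, scored 3.02, 3.09 and 2.85 at 1 w p.i. and 2.42, 1.91 and 2.25 at 3 w p.i. It fell by 0.79 (adjusted p = 0.037), and the groups did not overlap. It was the only gene called in 3 lists that hold it: collagens and matrix proteins (1 of 30), macrophages (1 of 31) and proteins linked to metastasis (1 of 29). Of all genes, 0.374% were called lower. The Spp1 call was kept in 1 of 6 fits that left out a tumor, the one without week 3 tumor 1 (adjusted p 0.0059 to 0.26 over the 6). Without week 3 tumors 2 and 3 together, Spp1 differed by -0.56. Of the remaining genes with the largest falls, Hpcal4, a calcium sensor of neurons, changed by -0.98, Cdhr1, a cadherin-related protein of photoreceptors, by -0.77, and Lao1, an L-amino acid oxidase found in mouse milk, by -0.95. Hpcal4, called in 1 of the 6 fits (without week 3 tumor 1), scored 0.19, 0.25 and 0.08 at 1 w p.i. and -0.93, -0.82 and -0.65 at 3 w p.i., and its gland change was -0.07, yet the test of tumor against gland change did not pass (adjusted p = 0.997).

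Erythroid genes gave more calls on the higher side than any other list. Hbb-b1, a beta-globin of adult hemoglobin (chromosome 7, 103826534-103828096), scored -0.60, -0.28 and -0.03 at 1 w p.i. and 0.92, 1.77 and 1.51 at 3 w p.i. All week 3 tumors lay above all week 1 tumors, by 1.70 ± 0.31 (adjusted p = 0.013, about 34.0-fold). Hba-a1, an alpha-globin, rose from -0.41, -0.30 and -0.16 to 0.75, 1.62 and 1.38 (1.54 ± 0.30, adjusted p = 0.015). Hba-a2 (1.60) and Hbb-b2 (1.58) rose with them, and since these copies are nearly identical, reads can be split between them. Alas2, the first enzyme of heme synthesis in red cells and no copy of a globin, scored -1.11, -1.20 and -1.15 and then -0.63, 0.07 and -0.18 (0.91 ± 0.18, adjusted p = 0.014).

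These were 5 of the 9 erythroid and platelet genes measured, beside 0.254% of all genes called higher, and the list's median was 0.909. The platelet genes Pf4 (-0.16) and Ppbp (-0.16) were not called (adjusted p = 0.56 and 0.27). Week 3 tumor 1 had the lowest hemoglobin of the week 3 tumors. No erythroid gene was called without week 1 tumor 1 (0.0231% of all genes were called higher), week 3 tumor 2 (0.0277%) or week 3 tumor 3 (0.06%), 1 was called without week 1 tumor 3 (0.00924%), and 5 and 6 without week 1 tumor 2 (0.711% of all genes called higher) and week 3 tumor 1 (7.06%). Without week 3 tumors 2 and 3 together the median of the list was 0.529 with no call, and Hbb-b1 differed by 1.22 (adjusted p = 0.28). The Matrigel glands showed the same order: Hbb-b1 scored 0.34, 1.21 and -0.09 at 1 w p.i. and 1.60, 1.77 and 1.54 at 3 w p.i. without overlap (1.15, adjusted p = 0.56). 6 of the 9 genes were apart in the glands on the higher side, where 4.61% of all genes were, and the list's gland median was 0.742. How much blood each sample held was not tested.

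Ighg1, the constant chain of IgG1 made by plasma cells (chromosome 12), scored -0.59, -0.36 and -0.25 at 1 w p.i. and 1.51, 0.32 and 0.79 at 3 w p.i. It rose by 1.27 ± 0.29 (adjusted p = 0.040, about 14.0-fold), without overlap and most in week 3 tumor 1. In glands it scored -0.44, -0.87 and 0.06 and then -0.59, -0.64 and -0.81, which is no rise. The test of tumor against gland change gave 1.54 ± 0.42 (adjusted p = 0.96), which did not pass. Ighg1 was called without week 1 tumor 2, week 3 tumor 1 and week 3 tumor 2, and not without the other 3 tumors (adjusted p 0.035 to 0.16 over the 6). Of 24 genes of B cells and plasma cells on the list, none was called. Ms4a1, a surface protein of B cells, scored -1.47, -1.42 and -1.41 at 1 w p.i. and -0.98, -1.41 and -1.22 at 3 w p.i. (0.23, adjusted p = 0.15), highest in week 3 tumor 1.

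Other genes with the largest rises changed less. Axin2, a feedback inhibitor of Wnt signaling that serves as its readout, went from -0.10, 0.03 and -0.02 at 1 w p.i. to 0.31, 0.32 and 0.30 at 3 w p.i. The week 3 tumors agreed closely, and the difference of 0.34 ± 0.07 (adjusted p = 0.021, about 2.02-fold) stands beside 0.17 in the glands, whose groups also did not overlap. Btbd8 (0.31), Myh10, a non-muscle myosin (0.29), and Grik5, a kainate receptor subunit (0.29), also rose. Each of these 4 genes was called in 2 of the 6 fits without 1 tumor, those without week 1 tumor 2 and without week 3 tumor 1. Timp3, a matrix-bound inhibitor of metalloproteases, was the only call among 26 matrix proteases and inhibitors (0.30, adjusted p = 0.032), a call kept without the same 2 tumors, with overlap: week 3 tumor 1 (1.32) lay below week 1 tumor 2 (1.35). Of all genes, 0.254% were called higher.

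**Figure D3:**
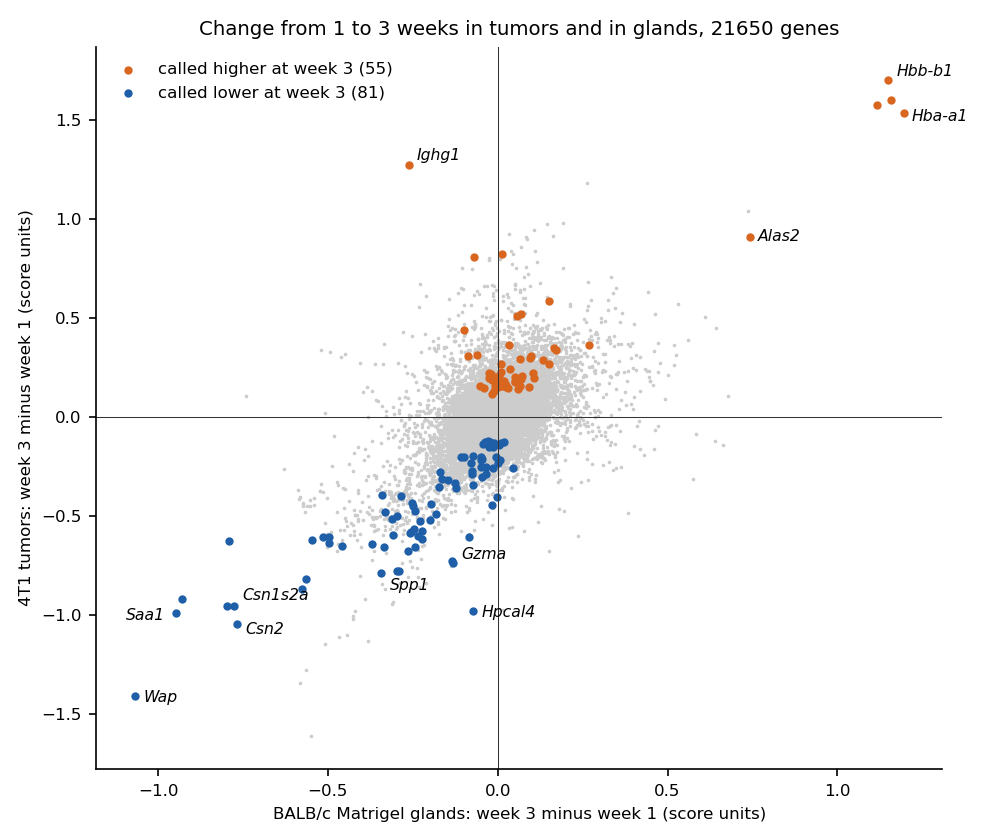
Difference between 3 and 1 w p.i. in score units for 21650 genes, in BALB/c Matrigel glands (horizontal axis) and 4T1 tumors (vertical axis); orange and blue points are the 55 genes called higher and the 81 called lower in tumors, grey points all others. Wap (-1.07 in glands, -1.40 in tumors) and Hbb-b1 (1.15 and 1.70) changed in the same direction on both axes, while Hpcal4 (-0.07 and -0.98) and Gzma (-0.13 and -0.73) lie near 0 on the gland axis.

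Tumor and gland comparisons share no library. 114 of the 136 called genes (83.8%) had the same sign in the glands, compared with 63.1% of all genes and 68.1% of the 3040 genes apart in tumors. Of the 129 called genes that were apart in tumors, 34 (26.4%) were also apart in the glands in that direction, compared with 220 (7.24%) of those 3040. Of the 81 lower genes 92.6% shared the sign, and of the 55 higher genes 70.9%. In the glands themselves 3 genes were called (0.0139%), all lower: Wap, Saa2 and 1810065E05Rik. The call of Wap was lost with the replicate number as a block, which kept the other 2. The difference between tumor and gland change was called for 1 gene (0.00462%), Npw, neuropeptide W, with a mean normalized count of 4.86. It was kept in 2 of 12 fits without 1 library and lost with the replicate block (adjusted p = 0.28).

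Proliferation genes depended on which week 3 tumors were used. Mki67, the Ki67 antigen, scored 1.52, 1.02 and 1.50 at 1 w p.i. and 1.21, 0.79 and 0.45 at 3 w p.i. (-0.52 ± 0.20, adjusted p = 0.18), and week 3 tumor 1 lay above week 1 tumor 2. Ube2c, which carries ubiquitin for the anaphase-promoting complex, was the only one of 50 proliferation genes called (-0.64, adjusted p = 0.038), with scores of 0.75, 0.46 and 0.76 and then 0.38, 0.04 and -0.37. With all libraries, 0.374% of all genes were called lower. Of the 50 genes, 49 had a lower mean at 3 w p.i. (11052 of all 21650 genes did), with a median of -0.475. The groups were apart on the lower side for 4 of the 50, and for 8.3% of all genes. Without week 3 tumor 1, 45 of 50 were called lower (8.54% of all genes were) and the median was -0.648. Without week 3 tumors 2 and 3 none was called and the median was -0.118. Leaving out week 1 tumor 2 gave 12 calls (1.6% of all genes were called lower), and none was called without any other tumor. In the glands the median was -0.322, and 12 of 50 were apart on the lower side, where 3.76% of all genes were. Of the deposited hallmark sets, E2F targets (191 genes, 2 called lower, median -0.123) and the G2M checkpoint (189 genes, 4 called lower, median -0.092) had the lowest medians of the 28, beside 0.374% of all genes called lower. Without week 3 tumor 1, 91 and 90 of their genes were called lower (8.54% of all genes were), with medians of -0.182 and -0.139. Without week 3 tumors 2 and 3 none was called, and the medians were -0.012 and -0.010.

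The mean scores of the lists for T cells and NK cells, macrophages, neutrophils, antigen presentation, interferon response and cytokines lay above all week 1 tumors in week 3 tumor 1 and below all of them in week 3 tumors 2 and 3. For B and plasma cells, eosinophils and mast cells, and complement, week 3 tumor 1 was again the highest, but week 3 tumors 2 and 3 were not both below the week 1 tumors. The mean score of 43 T cell and NK cell genes was 0.12, -0.12 and 0.14 at 1 w p.i. and 0.33, -0.40 and -0.13 at 3 w p.i. The median difference was -0.110 with all libraries, -0.323 without week 3 tumor 1 (12 called lower, 8.54% of all genes) and 0.279 without week 3 tumors 2 and 3 (3 called higher, Cd8a, Pdcd1 and Ifng, beside 0.513% of all genes). Cd8a, of cytotoxic T cells, scored -0.11, -0.43 and -0.14 at 1 w p.i. and 0.74, -0.54 and -0.02 at 3 w p.i., so that 1 tumor lay far above all others. Gzma, a granzyme of killer cells, was the only call of the list with all libraries: it scored 1.04, 0.59 and 1.14 and then 0.46, 0.00 and 0.10, below in every week 3 tumor, week 3 tumor 1 included (-0.73 ± 0.14, adjusted p = 0.013). Its gland difference was -0.13, and of the fits without 1 tumor it was called in those without week 1 tumor 2 and without week 3 tumor 1. Without week 3 tumors 2 and 3 together, Gzma differed by -0.459. With all libraries, 0.374% of all genes were called lower.

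Macrophage genes (31) had a median of -0.118, which was -0.262 without week 3 tumor 1 and 0.196 without week 3 tumors 2 and 3. Antigen presentation genes (31) gave -0.052, -0.205 and 0.259, interferon response genes (31) gave -0.005, -0.141 and 0.234, and cytokines and chemokines (49) gave -0.044, -0.195 and 0.207, in the same order. The last 3 of these lists had no call with all libraries. With week 3 tumor 1 alone, the difference was 0.86 for Nos2, the inducible nitric oxide synthase of activated macrophages, and 1.27 for Il13, a type 2 cytokine. It was 0.90 for Tslp, an epithelial cytokine that favors type 2 responses, and 1.84 for Mcpt1, a mast cell protease. These genes were picked for their rise in that 1 library, after the values had been seen. Il13 scored -0.90, -1.64 and -0.63 at 1 w p.i. and 0.22, -1.23 and -0.97 at 3 w p.i., with the glands between -1.78 and -1.57. Among 16 eosinophil and mast cell genes none was called with all libraries, but 5 were apart on the higher side (5.75% of all genes were). Tpsb2, a mast cell tryptase, scored 0.08, 0.35 and 0.24 and then 0.82, 0.82 and 0.63 (0.53, adjusted p = 0.052), high in all 3 week 3 tumors.

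Neutrophil genes, of the cells that 4T1 tumors draw, had a median of -0.004 over 29 genes. S100a9, a calprotectin subunit abundant in neutrophils, scored -0.51, -0.68 and -0.33 at 1 w p.i. and 0.23, -0.32 and -0.50 at 3 w p.i. (0.31, adjusted p = 0.40), and only week 3 tumor 1 lay clear of the week 1 range. Ngp and Camp, granule proteins of immature neutrophils, were not called by limma with all libraries (adjusted p = 0.27 and 0.15). Without week 3 tumors 2 and 3 they differed by 1.04 and 0.42, while the median of the neutrophil list was 0.101. Both were picked for their rise in week 3 tumor 1. Ly6g, the surface marker of mouse neutrophils, scored near -2.1 in all 6 tumors (-2.23 to -2.08).

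The genes of 31 proteins and markers that the study assayed by other means gave 0 calls among the 30 analysed here, with a median of -0.034. Lcn2, lipocalin 2, an iron-carrier-binding protein of neutrophils and of stressed mammary epithelium, came closest: it scored 2.32, 2.44 and 2.25 at 1 w p.i. and 1.64, 1.79 and 2.04 at 3 w p.i., without overlap (-0.51 ± 0.13, adjusted p = 0.057). Vegfa, the main endothelial growth factor, scored 0.80, 0.97 and 0.63 and then 0.97, 1.27 and 1.24 (0.36, adjusted p = 0.10). Vegfa was called higher without week 3 tumor 1 and in glands differed by 0.10. Mmp9, a gelatinase of neutrophils and macrophages, differed by 0.18 (adjusted p = 0.68), Il6 by -0.29 (adjusted p = 0.29) and Pecam1, of endothelium, by -0.02 (adjusted p = 0.88). Without week 3 tumor 1, 6 of the 30 were called lower and 1 higher, in a fit that called 8.54% of all genes lower and 7.06% higher. Without week 3 tumors 2 and 3, 5 were called higher (0.513% of all genes were) and 0 lower, among them Cd8a, Pdcd1, Ifng and Tnfsf13b, the B cell survival factor BAFF.

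Adipocyte genes showed the widest split of the 26 lists. The median of 20 adipocyte genes was 0.262 with all libraries, 0.706 without week 3 tumor 1 and -0.645 without week 3 tumors 2 and 3, with 0 calls, 4 called higher (7.06% of all genes were) and 0 calls. Plin1, the coat of the fat droplet, scored 1.17, 1.65 and 1.16 at 1 w p.i. and 0.64, 2.09 and 2.22 at 3 w p.i. Lipid synthesis genes (19) gave medians of 0.269, 0.544 and -0.322 in that order. Skeletal muscle genes had the second highest median of all lists, 0.746, and no call. Acta1, skeletal actin, scored -0.18, 2.56 and 1.56 at 1 w p.i. and 1.97, 2.83 and 1.98 at 3 w p.i., so week 1 tumor 1 lay far below the others, and its gland change was 0.11.

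Timp3, described above, stood in the separate list of matrix proteases and inhibitors. Among the lists of collagens and matrix proteins, mesenchymal, hypoxia and vessel genes, Spp1 was the only gene called with all libraries. The medians were 0.063 for 30 collagens and matrix proteins, 0.059 for 20 mesenchymal markers and EMT transcription factors, 0.012 for 36 hypoxia and glycolysis genes and 0.060 for 30 endothelial genes. Without week 3 tumor 1 they were 0.079, 0.022, -0.030 and 0.159 in the same order, with 7 endothelial genes called higher (7.06% of all genes were). Without week 3 tumors 2 and 3 they were 0.014, 0.057, 0.119 and -0.055, so the endothelial and hypoxia medians changed sign with the week 3 tumors used. Zeb1 and Twist1, transcription factors of EMT, differed by 0.22 and 0.23 (adjusted p = 0.19 for both). Both were called higher without week 3 tumor 1 (0.34 and 0.38) and had differences of -0.01 and -0.06 without week 3 tumors 2 and 3. Without week 3 tumor 1, 3 of the 20 genes of their list were called higher and 3 lower. In that fit 7.06% of all genes were called higher and 8.54% lower. Mmp13, a collagenase of invading fronts, scored 1.59, 0.62 and 0.79 at 1 w p.i. and 1.33, -0.55 and -0.29 at 3 w p.i. (-0.84, adjusted p = 0.20), again with week 3 tumor 1 inside the week 1 range. Car9, a hypoxia-induced carbonic anhydrase, differed by -0.02. Keratinocyte genes (11), complement and coagulation genes (30) gave 0 calls, with medians of -0.011 and 0.042.

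**Figure D4:**
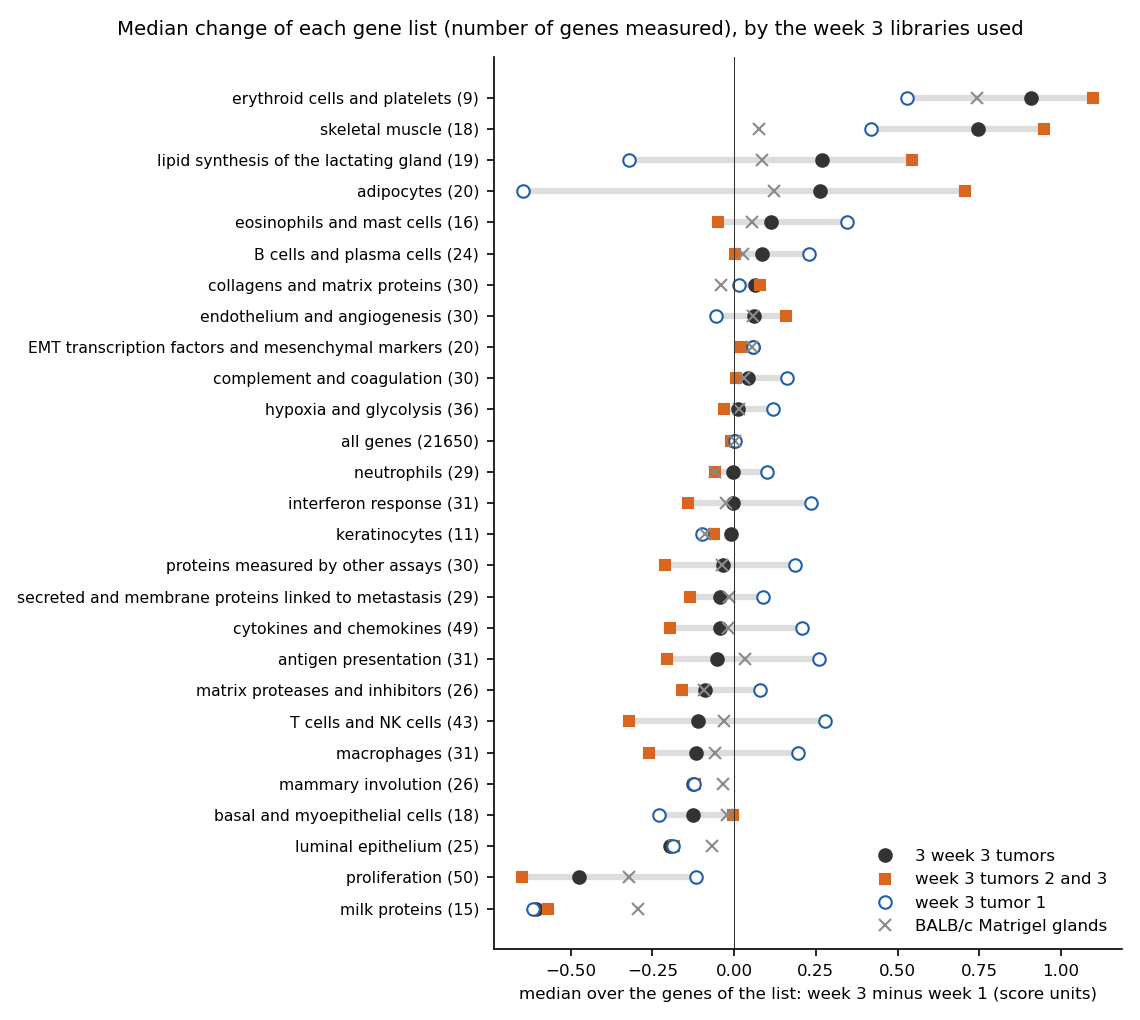
Median difference between 3 and 1 w p.i. (horizontal axis, score units) over the genes of each list and over all genes; filled circles use all 3 week 3 tumors, squares week 3 tumors 2 and 3, open circles week 3 tumor 1 alone, and crosses the Matrigel glands. Milk proteins, luminal epithelium and involution genes kept their place whichever week 3 tumors were used, while adipocyte genes (-0.645 to 0.706) and T cell genes (-0.323 to 0.279) changed sign.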

How the data were processed

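RNA of flash-frozen tumors and glands was made into stranded libraries by the authors, who per their methods sequenced both ends of fragments, used STAR for mapping to mm10, summariseOverlaps for counts per gene and DESeq2 for normalization, versions not given in the sources used here. The deposited expression values are scores, standardized by the authors to a mean of 0 and an SD of 1 within each library, a step not given in the sources used here, so no count model was used and depth is unknown. Mean normalized counts and 28 hallmark sets come from the authors' deposited tables. These tables also hold fold changes and p-values of the authors' own comparisons, which were not used. 5384 genes without a symbol were named by ID, and coordinates are those of GENCODE on GRCm38 (mm10).

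Scores were fitted in limma 3.58.1 (R 4.3.3) with 1 mean per group over all 36 libraries, trend and robust moderation, and Benjamini-Hochberg adjustment over 21650 genes at 0.05. The gland change and the tumor change minus the gland change were contrasts of the same fit. On simulated scores for the tumor comparison over 21650 genes, 89 of 100 genes changed by 0.5 units and 96 of 100 changed by 1 unit were recovered, with 11 false calls. These rates hold for the simulated scores only. On the deposited scores the tumor calls ran from 12 to 3378 with 1 tumor left out. They were 0 in the fit of the 6 tumor libraries alone. The recovery and false calls of the tumor comparison itself are therefore not known from the simulation. No source used here says that same-numbered libraries share a mouse. Their deviations from the group means correlated at 0.463, 0.543 and -0.31 for tumors and at 0.153, 0.678 and 0.70 for glands. The main fit did not use the numbers. The replicate block, an alternative fit, took same-numbered libraries as matched within tumors and within glands alike. Groups were called apart where every library of one time point lay above every library of the other. Named genes were the assayed proteins, the 10 genes that rose most and the 10 that fell most among called ones whose groups were apart, at mean normalized counts of 100 or more (predicted genes left out), and up to 6 called genes and the defining members of each list. The 26 lists, which partly share genes, were written from general knowledge. Members and lists were chosen with earlier results of these data known. No library was left out of the main values, and duplicate libraries were not found (highest correlation 0.993). Some genes that the rule names are not reported here.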

Additional observations from a re-analysis of the deposited data

Results flagged for a closer look

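Npw, which encodes neuropeptide W (chromosome 17), was the only gene whose change from 1 to 3 w p.i. differed between 4T1 tumors and BALB/c Matrigel glands by a test of that difference. The tumors changed by -0.26 and the glands by 0.04, a difference of -0.30 ± 0.05 score units (limma adjusted p = 0.047). Its mean normalized count was 4.86, and genes under a mean normalized count of 10 were not tested under that filter. The call was kept in 2 of the 12 fits without 1 library (adjusted p 0.0455 to 0.333), and it was lost with the replicate block (adjusted p = 0.28), median and MAD scaling (0.431) and the 12 BALB/c libraries alone (1.0).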

How the results depend on the processing

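The 136 tumor calls, 3 gland calls and 1 call for the tumor change minus the gland change moved with the libraries more than with the scaling. Tumor calls were 209 under cyclic loess, 182 under median and MAD scaling, 127 with no trend and 142 with a filter at a mean normalized count of 10. Median and MAD scaling gave 93 higher and 89 lower genes in place of 55 and 81. Fits of the 12 BALB/c libraries gave 0, 0 and 0 calls for the 3 comparisons, and the 6 tumor libraries alone gave 0. Leaving out 1 library gave 12 to 3378 tumor calls, 0 to 14 gland calls and 0 to 1 calls for the difference. The 14 gland calls came without week 1 gland 2, and without week 3 tumor 1 the gene called in the difference was not Npw. Without week 3 tumors 2 and 3 there were 150 tumor calls and 35 for the difference, and without these and week 1 tumor 2 there were 79 and 24, alternatives chosen after seeing the data. The filter and median and MAD scaling each gave 0 gland calls and 0 for the difference.

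With a replicate block there were 172, 2 and 0 calls for the 3 comparisons, 112 of the 172 shared with the 136, and Wap lost its call in glands (adjusted p = 0.094).

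The differences of the 31 called genes checked one by one kept their sign under every alternative run. All 31 kept their call under cyclic loess, median and MAD scaling, no trend and the filter, 30 did with the replicate block (Csn1s2a did not, adjusted p = 0.057), and 0 did in fits of the 6 or the 12 libraries. Putting the scores back on a log2 scale through read steps was not run, since the scores hold no such steps. The depth of each library, and so the counting error of low genes, is unknown.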
